A study of Mus musculus with 47 samples.

Results

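Fos, Fosb, Jun, Junb, Egr1, Egr2, Atf3, Ier2, Myc and Nr4a1 are immediate early genes, and their levels were followed mouse by mouse in inguinal white adipose tissue (iWAT). The members were taken by gene name and not by a cut on their values, although earlier results of these data were known. All 10 of 10 were found among the 27745 gene names on the array. They are read by 14 probes. A probe was used where its mean signal in both dyes was at least 2 times the local background, which 12 of the 14 probes and 9 of the 10 genes reached. Fosb did not.

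RNA of the iWAT of 47 mice was hybridized, 1 array per mouse, in 8 groups set by sex, genotype and diet. The genotypes were wild-type (WT) and Bcmo1-/- mice, which lack the oxygenase that splits β-carotene (BC) into retinaldehyde, both on a C57/BL6;129Svj background. The control diet held 1500 IU vitamin A per kg, and the BC diet held the same with 150 mg BC per kg, each fed for 14 weeks from 5 weeks of age until tissues were taken at 19 weeks. The groups were WT females on control diet (n = 6), WT females on BC diet (n = 6), Bcmo1-/- females on control diet (n = 6), Bcmo1-/- females on BC diet (n = 6), WT males on control diet (n = 6), WT males on BC diet (n = 5), Bcmo1-/- males on control diet (n = 6) and Bcmo1-/- males on BC diet (n = 6). The WT mice were an F1 generation of the mixed background and not stated to be littermates of the Bcmo1-/- line, so that genotype and breeding line cannot be told apart. The Bcmo1 probe lay at 1.64 times the background in WT mice and 1.62 times in Bcmo1-/- mice, under the limit for use, so it checks nothing about the genotype labels. The 9 adipocyte markers, among them Adipoq and Fabp4, all lay at 106 times the background or higher.

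Immediate early genes are switched on within minutes of a stimulus, without new protein synthesis, through transcription factors that already sit in the cell. The serum response factor binds a CArG box and CREB binds a cAMP response element, and both drive many of these genes. Fos, Fosb, Jun, Junb and Atf3 encode leucine zipper proteins, of which Fos and Jun proteins pair to form the transcription factor AP-1. Egr1 and Egr2 encode zinc finger factors, Nr4a1 an orphan nuclear receptor, Ier2 a small nuclear protein and Myc a factor of cell growth. In dissected tissue such genes can also respond to handling between death and freezing, which is why their levels are of use beside any comparison of diet or genotype.

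The bases before the start sites of 3 members are shown because these genes differ in how they moved with the others: Fos and Junb varied together over mice and Nr4a1 did not follow them. Each stretch holds 150 bases upstream of the RefSeq start (GRCm38.p6), 5′ to 3′ on the gene's strand, with capitals for TGACG, the core of a cAMP response element, on either strand (CGTCA on the other), and for the TATA sequence TATAAA.
Fos, chr12:85473740-85473889, plus strand: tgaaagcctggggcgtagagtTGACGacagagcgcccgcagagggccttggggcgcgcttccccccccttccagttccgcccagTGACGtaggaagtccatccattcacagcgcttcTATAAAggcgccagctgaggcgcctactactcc
Junb, chr8:84978749-84978898, minus strand: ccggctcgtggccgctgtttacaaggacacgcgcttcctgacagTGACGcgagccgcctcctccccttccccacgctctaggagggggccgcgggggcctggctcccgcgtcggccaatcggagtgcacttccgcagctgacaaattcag
Nr4a1, chr15:101266696-101266845, plus strand: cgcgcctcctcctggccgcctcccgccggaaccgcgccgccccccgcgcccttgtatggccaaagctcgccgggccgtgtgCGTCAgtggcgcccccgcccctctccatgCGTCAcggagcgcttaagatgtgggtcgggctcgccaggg
Over the 250 bases before the start, TGACG on either strand was found in 17.8% of all 32851 windows of the table and in 6 of the 7 members with a window (Fos, Fosb, Junb, Egr2, Atf3 and Nr4a1, not Jun). In Fos it starts at positions -129 and -66, in Junb at -106, and in Nr4a1 at -233, -213, -69 and -40, counted from the start site. A CArG box lay in 1.47% of all windows and, among the members with a window, only in windows of Egr2, which has 5 listed start sites. Egr1, Ier2 and Myc had no window, and bases farther than 250 from the start were not searched. A CArG box in those places would not have been seen. TATAAA on the gene's strand was present in 7.59% of all windows and, of the members, in Fos alone at -33. Such matches describe the letters and do not show that a factor was bound.

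Levels are log2 ratios of the mouse (Cy5) to a pool of all samples (Cy3), so that 0 is the pool, and differences are given on the same log2 scale. The array design places the probes (mm8) of Fos at chr12:86366053-86366112, Jun at chr4:94541191-94541250, Junb at chr8:87867049-87867108, Egr1 at chr18:34990715-34990774, Egr2 at chr10:66937367-66937426, Atf3 at chr1:192871283-192871342, Ier2 at chr8:87549656-87549690, Myc at chr15:61819627-61819687 and Nr4a1 at chr15:101102674-101102733. Exon and UTR annotation of that build was not used here. Signals ran from 9.98 times the background in Cy5 for Fos to 331 times for Junb, and the brightest probe of each of the 9 genes was marked as well above background on 47 of 47 arrays in both dyes. For Fos, Jun, Egr2 and Myc each array holds 10 spots of the probe. No pair of arrays correlated above 0.94, and no 2 samples looked like 1 sample deposited again.

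Mice of the same group differed widely in most of these genes, as seen in the plot of values by mouse. Egr1 ranged from -1.36 to 1.65 over the 47 mice, Egr2 from -1.90 to 2.12 and Myc from -1.39 to 1.52. The pooled SD within groups was 0.82 for Egr1, 0.69 for Egr2, 0.62 for Nr4a1 and 0.57 for Fos, against a median of 0.20 over the 18984 probes measured on all arrays. These 4 genes stood at the 98.0, 96.8, 95.9 and 94.7 percentile of that distribution. Myc (SD 0.41), Ier2 (0.35), Junb (0.31), Jun (0.29) and Atf3 (0.26) followed. Atf3, a stress-induced factor, had the narrowest range of the 9, from -0.42 to 0.70. Its probe was dim, at 4.6 times the background in Cy3, as was that of Fos at 4.3 times. The offset of the background correction narrows the ratios of dim probes.

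**Figure D1:**
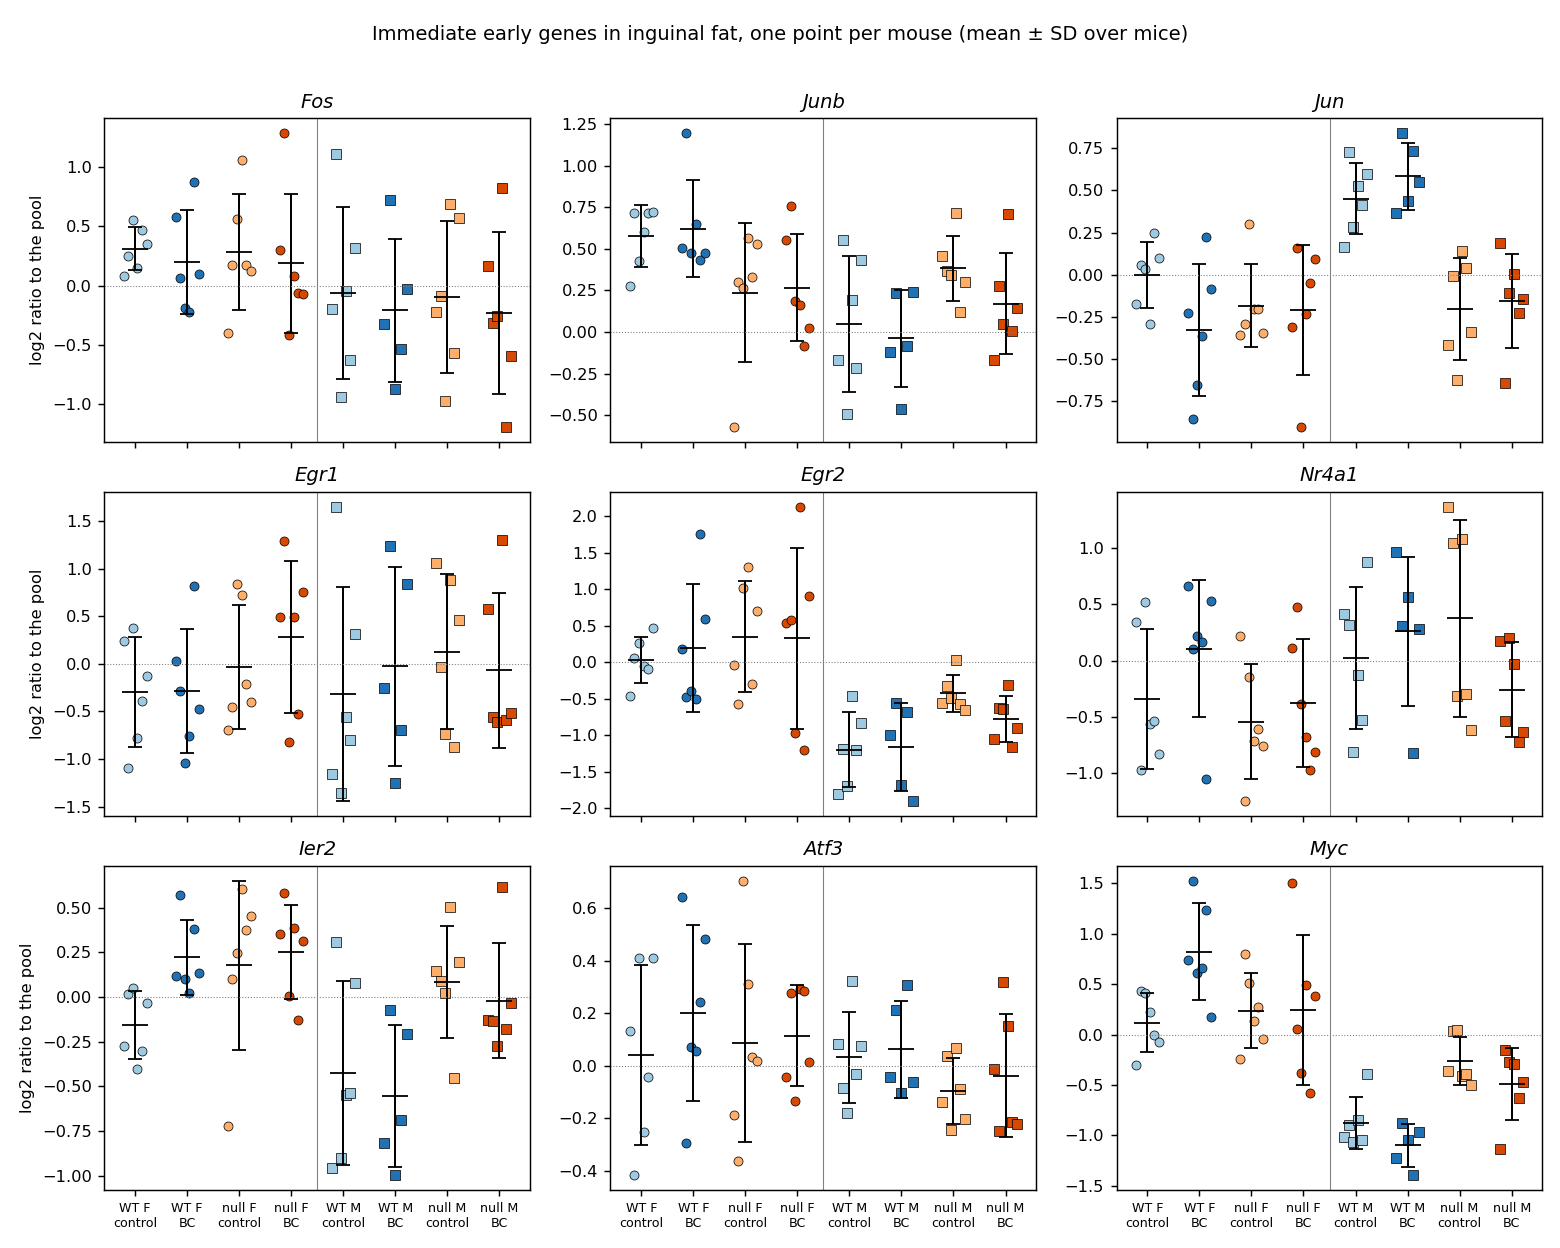
Log2 ratio to the common pool (vertical axis) of 9 immediate early genes in each of the 8 groups (horizontal axis, F female, M male, null for Bcmo1-/-), 1 point per mouse with the group mean and SD. Points of Egr1 and Fos overlap between all 8 groups, whereas Jun is high in WT males and Myc and Egr2 are low in males.

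Group membership accounted for little of the variance of Egr1, 6.85%, Atf3, 11.3%, and Fos, 13.7%, and for much of that of Myc, 71.7%, Jun, 57.8%, and Egr2, 47.9%. The median over all probes was 37.1%. The 12 slides, each with up to 4 arrays, took up 18.0% of the variance within groups for Egr1 and 30.3% for Fos, both below the median of 35.8% over all probes.

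Whether the members were high in the same mice was asked after subtracting each group mean, over 47 mice and 36 pairs of genes. Pearson's r was positive and passed the test in 18 of 36 pairs (permutation of mice within groups, two-sided, Benjamini-Hochberg over the 36 pairs), and Spearman's rho in 20. How often pairs of other genes pass was not determined. The count by r ran from 16 to 32 under alternative processing, with 32 reached without normalization. The strongest pair was Fos and Egr1, with r = 0.84 and rho = 0.82 (permutation p = 1e-05 for each, the smallest that 100000 permutations can give, adjusted p = 9e-05). Junb and Ier2 followed with r = 0.84 and rho = 0.73, Egr1 and Ier2 with r = 0.78 and rho = 0.77, and Fos and Ier2 with r = 0.74 and rho = 0.70 (adjusted permutation p = 9e-05 for each). Fos and Junb gave r = 0.63 and rho = 0.58 (permutation p = 4e-05 for r and 0.00016 for rho, adjusted p = 0.000288 and 0.00072). Over the 47 mice, Fos, Egr1, Ier2 and Junb thus tended to be high in the same animals.

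The pairs of Fos with Egr1 and of Junb with Ier2 kept their r when mice, slides or a sex were left out of it. On leaving out the 2 extreme mice for Fos, r of Fos and Egr1 was 0.81, and on leaving out those for Junb, r of Junb and Ier2 was 0.81. With slide means taken out as well, the same pairs had r = 0.86 and 0.81. Fos and Egr1 correlated at 0.79 in females and 0.87 in males, and Junb and Ier2 at 0.79 and 0.90. Junb and Egr1 (r = 0.54 over all mice) had r = 0.23 in females and 0.79 in males, a difference that was not tested. With the lymphocyte and mammary marker levels of each sample taken out, r was 0.83 and 0.82. Among 13593 genes ranked by r with Fos within groups, Egr1, Ier2 and Junb took ranks 1, 2 and 3.

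**Figure D2:**
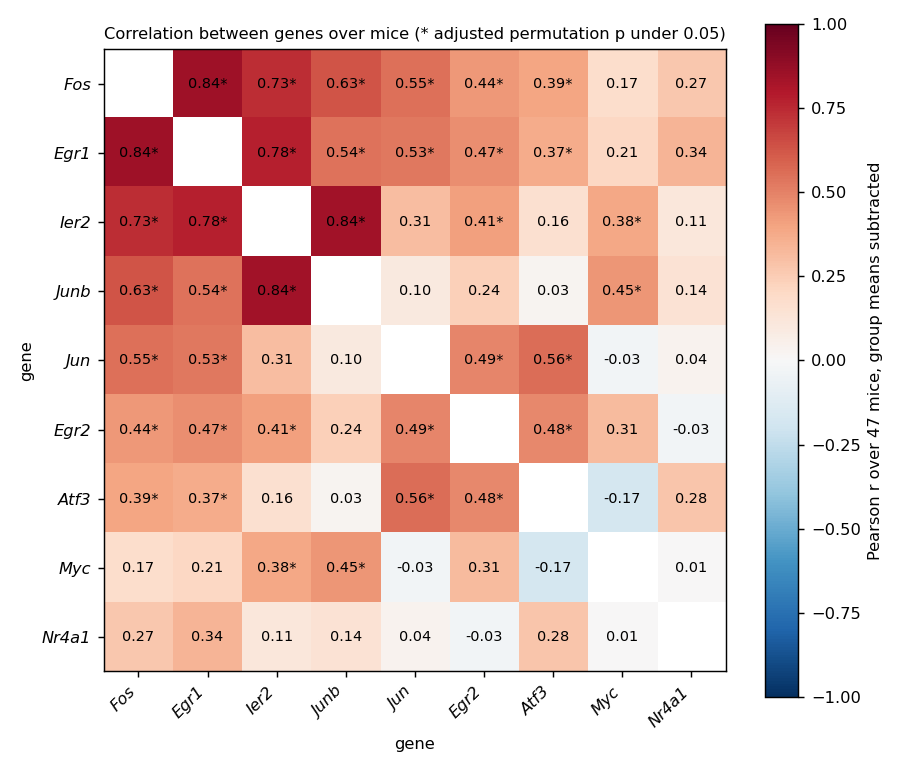
Pearson r between each pair of 9 genes (both axes) over 47 mice after subtracting group means, with colour and printed value for r and an asterisk for an adjusted permutation p under 0.05. The 5 highest values are pairs among Fos, Egr1, Ier2 and Junb, whose remaining pair (Junb and Egr1) is at 0.54, and the row of Nr4a1 holds no asterisk.

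The other members joined to differing degrees. Jun correlated with Atf3 (r = 0.56, rho = 0.59, adjusted permutation p = 0.00072 and 0.000288), with Fos (r = 0.55, rho = 0.59) and with Egr1 (r = 0.53, rho = 0.52), but gave r = 0.10 and rho = 0.13 with Junb (permutation p = 0.53 and 0.401). Egr2 correlated with Jun, Atf3, Egr1, Fos and Ier2, with r from 0.41 to 0.49. The pair of Egr2 and Jun fell to r = 0.34 on leaving out the 2 extreme mice for Jun. Myc passed the test with Junb (r = 0.45, rho = 0.40) and Ier2 (r = 0.38, rho = 0.42) only. Nr4a1, although among the most variable genes, passed the test of r with none of the 8 others. Its highest value was r = 0.34 with Egr1 (permutation p = 0.0331, adjusted p = 0.0597), a pair whose rho of 0.38 did pass (adjusted permutation p = 0.0319).

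**Figure D3:**
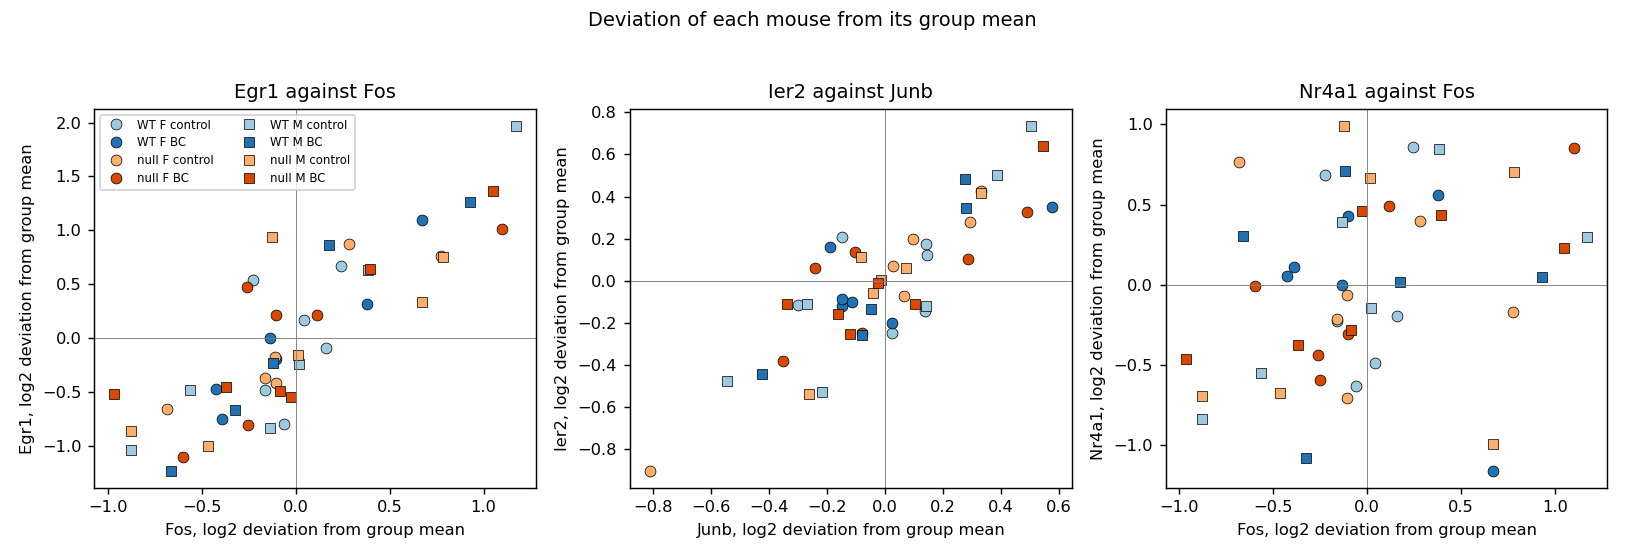
Deviation of each mouse from its group mean (log2) for Egr1 against Fos, Ier2 against Junb and Nr4a1 against Fos, with 1 point per mouse, circles for females, squares for males and colours for genotype and diet. Over all mice the points of the left and middle panels follow a rising line (r = 0.84 in each) and those of Nr4a1 less so (r = 0.27), and the WT females on control diet, whose Fos lay between 0.08 and 0.55, do not line up clearly.

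Fos, Egr1, Ier2 and Junb were all above their group means in 11 of 47 mice and all below in 16, a description chosen after the values were seen. As each mouse was set against its own group mean, every group holds values above and below it. The spread of such mice over the groups therefore says nothing about diet, genotype or sex. The 11 mice were 1 WT female on control diet, 2 Bcmo1-/- females on each diet, 2 WT males on each diet and 1 Bcmo1-/- male on each diet, with none among the 6 WT females on BC diet. They came from 8 of the 12 slides and all 4 positions on a slide. The mouse with the highest Egr1 was WT male replicate 2 on control diet, with Egr1 at 1.65, Fos at 1.11, Ier2 at 0.31 and Junb at 0.55, where the other 5 mice of its group had Egr1 between -1.36 and 0.31. The mouse with the highest Egr1 of its group also had the highest Fos in 6 of the 8 groups.

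The 10 other genes most like the median of the 9 members over mice (Pearson r within groups, given as a description) were Zfp516 (r = 0.66), AK048349 (0.62), Cyr61 (0.59), Cstad (0.58), Mtmr11 (0.58), Ets2 (0.58), Zfp81 (0.56), Tnfsf10 (0.56), Hoxb2 (0.55) and Tgfb2 (0.55). Cyr61 encodes a matrix protein that is itself an immediate early product. Of 33 further immediate early genes on a list, 23 had a positive r with that median, from -0.32 for Cebpb to 0.59 for Cyr61, with a median r of 0.13 against -0.01 over all genes, of which 48.9% were positive. Ier3 (0.54) and Klf10 (0.44) came next to Cyr61. None of 13 heat shock genes had a positive r, with values from -0.47 for Chordc1 to -0.04 for Hspa1a, the inducible Hsp70. The median r was -0.06 for 13 genes of endoplasmic reticulum stress, -0.04 for 14 of hypoxia, -0.01 for 8 glucocorticoid targets and 0.28 for 7 of interleukin 6 and the acute phase, in which Il6 reached 0.42. For the 13 heat shock genes the median r was -0.19. By member, r with the median of the heat shock genes differed. It was -0.51 for Junb, -0.43 for Ier2, -0.40 for Fos, -0.37 for Egr1 and -0.31 for Nr4a1. For Egr2 (-0.09), Jun and Myc (-0.03 each) and Atf3 (0.00) it was near 0. These values were not tested.

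The diet comparison asked whether BC shifted these genes. In WT females no member passed the adjusted threshold (limma, adjusted p under 0.05), beside 1.11% of all 20811 probes. At an unadjusted p under 0.05, 2 of 9 passed beside 23% of all probes, and the methods' t-test passed the same count, 2 of 9 unadjusted (1 of them, Ier2, also under 0.01), and 0 after adjustment. The 2 were Myc and Ier2 by limma and by the methods' t-test alike. Myc ranged over -0.30, 0.11 and 0.43 (lowest, median, highest) on control diet and 0.17, 0.70 and 1.52 on BC diet, with overlap between the groups. The difference was 0.71 ± 0.28 (SE, adjusted p = 0.138 by limma), and it was positive on 5 of the 5 slides that held both groups. With all 47 arrays in the fit, the same difference had an adjusted p of 0.0483. Ier2 differed by 0.38 ± 0.17 (adjusted p = 0.19 by limma). Fos (-0.11 ± 0.25) and Egr1 (0.01 ± 0.37) differed by less than their standard errors. Jun (-0.32 ± 0.18), Nr4a1 (0.44 ± 0.32), Egr2 (0.16 ± 0.47), Atf3 (0.16 ± 0.18) and Junb (0.05 ± 0.17) did not pass either (adjusted p from 0.268 to 0.896 by limma).

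In Bcmo1-/- females BC moved none of the 9 members past either threshold (0 of 9 at an unadjusted p under 0.05 by limma and by the methods' t-test), beside 0% of all probes at the adjusted and 2.46% at the unadjusted threshold. The differences ran from -0.10 for Fos to 0.31 ± 0.37 for Egr1, with Jun at -0.03, Egr2 at -0.02, Myc at 0.01, Atf3 and Junb at 0.03, Ier2 at 0.07 and Nr4a1 at 0.17. The diet effect did not differ between WT and Bcmo1-/- females for any member (0 of 9 by limma at both thresholds, beside 0% adjusted and 9.68% unadjusted of all probes). The largest of these interactions was Myc, 0.70 ± 0.39 (adjusted p = 0.576 by limma). The others were -0.30 for Jun and Egr1, -0.01 for Fos, 0.02 for Junb, 0.13 for Atf3, 0.18 for Egr2, 0.28 for Nr4a1 and 0.30 for Ier2.

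In males BC moved 0 of 9 members in WT males at both thresholds by limma (0% of 20437 probes adjusted, 1.94% unadjusted) and 0 of 9 in Bcmo1-/- males (0% adjusted, 3.55% unadjusted), with 0 by the methods' t-test. The interaction of genotype and diet in males was passed by 0 of 9 (0% adjusted, 1.41% unadjusted). Nr4a1 in Bcmo1-/- males had the largest difference, -0.63 ± 0.36 (adjusted p = 0.983 by limma). Its levels were -0.61, 0.37 and 1.36 (lowest, median, highest) on control diet and -0.72, -0.29 and 0.20 on BC diet, which overlap. The other differences in Bcmo1-/- males were -0.35 for Egr2, -0.23 for Myc, -0.21 for Junb, -0.20 for Egr1, -0.13 for Fos, -0.10 for Ier2, 0.05 for Jun and 0.06 for Atf3. In WT males they were -0.22 for Myc, -0.14 for Fos, -0.13 for Ier2, -0.09 for Junb, 0.03 for Atf3, 0.04 for Egr2, 0.13 for Jun, 0.24 for Nr4a1 and 0.29 for Egr1. The interactions in males were 0.87 ± 0.52 for Nr4a1, 0.49 for Egr1, 0.39 for Egr2, 0.13 for Junb, 0.09 for Jun, 0.01 for Myc, -0.01 for Fos and -0.03 for Atf3 and Ier2. Standard errors of the diet differences in males ran from 0.10 for Atf3 to 0.54 for Egr1, so that the limit on what could be detected differed between genes and was highest for Egr1. Of the 33 further immediate early genes, 0 passed the adjusted threshold for diet in any of the 4 groups by limma. In WT females the 3 with the lowest p were Nfkbia (0.49), Rhob (-0.50) and Klf2 (1.35).

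Genotype was compared within each sex and diet. In females on control diet no member differed (0 of 9 at both thresholds by limma and 0 by the methods' t-test), beside 1.84% of all probes adjusted and 10.5% unadjusted. Junb was lower in Bcmo1-/- mice by limma, -0.34 ± 0.17 (adjusted p = 0.53), and Ier2 higher, 0.33 ± 0.17 (adjusted p = 0.522), neither past the threshold. Fos (-0.03), Jun (-0.18), Nr4a1 (-0.20), Atf3 (0.05), Myc (0.12), Egr1 (0.26) and Egr2 (0.32) did not pass either (adjusted p from 0.847 to 0.995 by limma). Without Bcmo1-/- replicate 1, whose Ier2 of -0.73 was the lowest of its group, Ier2 differed by 0.51 ± 0.13 (adjusted p = 0.0358 by limma). It also passed with the lymphocyte and mammary marker levels as covariates, 0.54 ± 0.11 (adjusted p = 0.00657 by limma).

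In females on BC diet 0 of 9 passed the adjusted threshold beside 5.5% of all probes, and 1 of 9, Myc, the unadjusted one beside 22.3%. The methods' t-test called 0 at either level, beside 643 of 20811 probes after adjustment. Myc was 0.82 ± 0.48 (SD, n = 6) in WT and 0.25 ± 0.74 in Bcmo1-/- mice, a difference of -0.58 ± 0.28 (SE, adjusted p = 0.218 by limma). It became -0.83 ± 0.23 without Bcmo1-/- replicate 1 (adjusted p = 0.0344 by limma), the mouse with the highest Myc of its group. The others were Egr1 at 0.57, Egr2 at 0.14, Jun at 0.12, Ier2 at 0.03, Fos at -0.01, Atf3 at -0.09, Junb at -0.36 and Nr4a1 at -0.48 (adjusted p from 0.232 to 0.977 by limma). Nfkbia, an inhibitor of NF-κB, was the 1 gene of the 33 further immediate early genes to pass here (-0.58, adjusted p = 0.0313 by limma).

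Male mice differed by genotype in 3 of 9 members on control diet. As 30.2% of all 20437 probes were called, the members were not set apart by their count. Jun was lower and Myc and Egr2 were higher in Bcmo1-/- males. Jun lay at 0.16, 0.47 and 0.73 (lowest, median, highest) in WT males on control diet and at -0.63, -0.17 and 0.14 in Bcmo1-/- males. The groups did not overlap, and the difference was -0.65 ± 0.14 (SE, adjusted p = 0.00178 by limma), 1.57-fold. On BC diet the 5 WT males had Jun at 0.37, 0.84, 0.44, 0.73 and 0.55, and the Bcmo1-/- males lay at -0.64, -0.13 and 0.19. Again every WT male was above every Bcmo1-/- male, and the difference was -0.74 ± 0.15 (adjusted p = 0.0013 by limma). Jun was the only member without overlap on either diet. The share of all probes without overlap was not determined, so the lack of overlap does not set Jun apart from other genes. On each slide that held both groups Jun was lower in the Bcmo1-/- males, 4 of 4 slides on control diet and 5 of 5 on BC diet. With each array centred on its median in place of loess, Jun on control diet did not pass (-0.51, adjusted p = 0.182 by limma).

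Myc rose where Jun fell. It was -1.07, -0.96 and -0.39 (lowest, median, highest) in WT males on control diet against -0.50, -0.38 and 0.05 in Bcmo1-/- males, a difference of 0.61 ± 0.15 (adjusted p = 0.00432 by limma), with overlap through WT replicate 6. On BC diet the 5 WT males had Myc at -1.22, -0.87, -1.04, -1.39 and -0.96 and the Bcmo1-/- males at -1.13, -0.38 and -0.15, a difference of 0.61 ± 0.16 (adjusted p = 0.00683 by limma). On BC diet Myc did not pass with median centring (0.61, adjusted p = 0.0869), without normalization (0.69, adjusted p = 0.0742) or with all 47 arrays in the fit (0.61, adjusted p = 0.0585), each by limma, and on control diet it did not pass without normalization (0.60, adjusted p = 0.0965 by limma). A second Myc probe gave 0.63 and 0.51 (adjusted p = 0.00177 and 0.00967 by limma). The dimmest Myc probe gave 0.18 and 0.10 and did not pass (adjusted p = 0.0604 and 0.332 by limma).

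Egr2 was -1.81, -1.20 and -0.46 in WT males on control diet and -0.65, -0.53 and 0.04 in Bcmo1-/- males, with overlap, a difference of 0.77 ± 0.24 (adjusted p = 0.0167 by limma). On BC diet it differed by 0.38 ± 0.25 (adjusted p = 0.252 by limma), and 2 of 9 members, Jun and Myc, were called there beside 29.2% of all probes. Ier2 was higher by 0.51 ± 0.22 and 0.54 ± 0.23 on the 2 diets without passing (adjusted p = 0.0791 and 0.0769 by limma). It passed on control diet without WT replicate 2 (0.65, adjusted p = 0.0235), WT replicate 6 (0.61, adjusted p = 0.0379) or Bcmo1-/- replicate 5 (0.62, adjusted p = 0.0375), and on BC diet without WT replicate 2 (0.66, adjusted p = 0.046), each by limma. Fos (-0.03 ± 0.36 and -0.02 ± 0.38) and Atf3 (-0.13 ± 0.10 and -0.10 ± 0.11) did not pass in males on control and BC diet, nor did Junb (0.33 ± 0.17 and 0.21 ± 0.18), Egr1 (0.45 ± 0.51 and -0.04 ± 0.54) and Nr4a1 (0.35 ± 0.36 and -0.52 ± 0.38), with adjusted p by limma from 0.147 to 0.972.

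**Figure D4:**
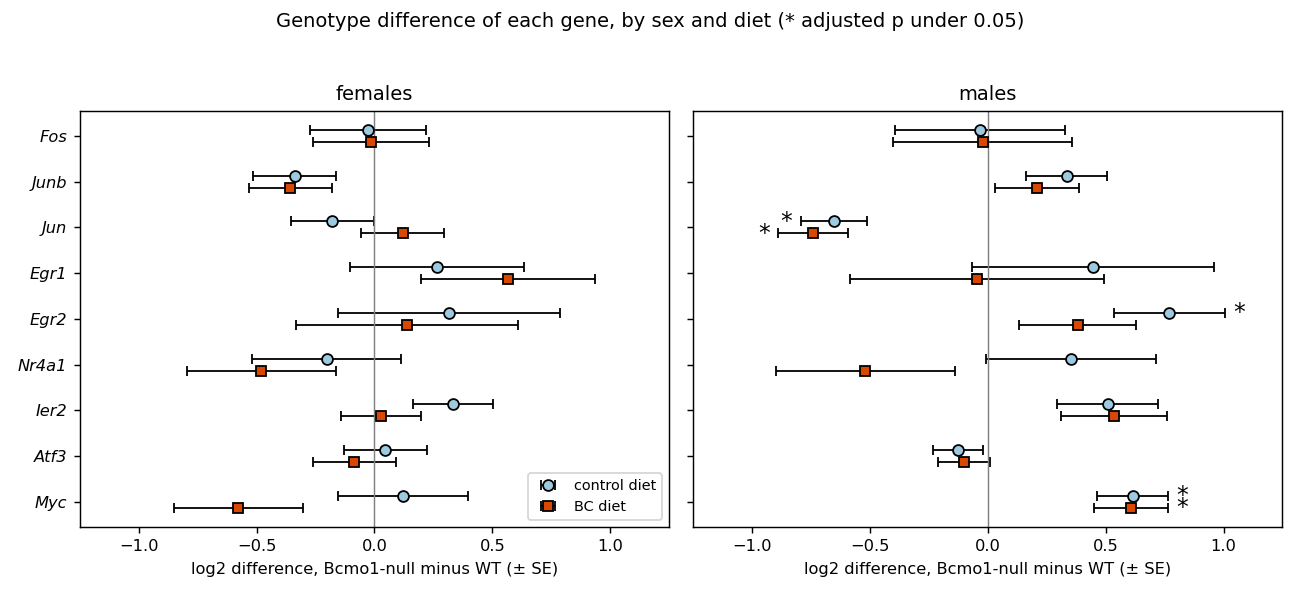
Log2 difference of Bcmo1-/- minus WT mice (horizontal axis, points with SE) for 9 genes in females (left) and males (right), circles for the control diet and squares for the BC diet, with asterisks for an adjusted p under 0.05. Asterisks stand only in the male panel, at Jun and Myc on both diets and at Egr2 on control diet.

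The lymphocyte markers of the sample moved with genotype in males as well. iWAT encloses the inguinal lymph node, and 9 of 9 tested lymphocyte markers were higher in Bcmo1-/- males on either diet, with a median difference of 2.64 on control and 2.97 on BC diet. Each sample's median over 10 of 11 markers (Cd79a was not usable) ran from -3.39 to 0.28 in WT males on control diet, from -3.38 to -1.50 in WT males on BC diet, from 0.37 to 1.48 in Bcmo1-/- males on control diet and from -2.53 to 1.01 in Bcmo1-/- males on BC diet. In whole tissue, a larger share of a cell type and more RNA per cell cannot be told apart. Bcmo1-/- replicate 1 on BC diet, the single Bcmo1-/- male at a low marker level (-2.53), had Myc at -1.13, the lowest of its group, and Jun at 0.19, the highest of its group. WT replicate 6 on control diet, the WT male with the highest marker level (0.28), had Myc at -0.39, the highest of the 11 WT males, and Jun at 0.59. These are single mice. Over all 47 mice of both sexes, r within groups with the lymphocyte markers was -0.14 for Myc, -0.34 for Jun and -0.06 for Egr2. For Myc it was 0.50 with the mammary markers. These correlations were not tested.

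On control diet the lymphocyte levels of WT males (at most 0.28) and Bcmo1-/- males (at least 0.37) did not overlap. On BC diet they overlapped through Bcmo1-/- replicate 1 (-2.53). The fit with these levels was made over all male arrays, so its slope on lymphocyte level could also draw on spread within groups. WT males on control diet, for example, ran from -3.39 to 0.28. On control diet no level was shared by mice of both genotypes, so the adjusted difference there depends on that slope. How far the fit on BC diet depends on Bcmo1-/- replicate 1 was not tested. With the lymphocyte and mammary marker levels as covariates none of the 9 members was called in males. Jun then differed by -0.49 ± 0.18 on control and -0.55 ± 0.19 on BC diet (adjusted p = 0.154 and 0.156 by limma). Myc differed by 0.26 ± 0.17 and 0.21 ± 0.18 (adjusted p = 0.466 and 0.573 by limma), and Egr2 on control diet by 0.48 ± 0.29 (adjusted p = 0.449 by limma). With slide as a block, Jun kept its call on both diets (-0.57 and -0.70, adjusted p = 0.0386 and 0.00643 by limma), Myc kept it on BC diet (0.55, adjusted p = 0.0168) but not on control diet (0.49, adjusted p = 0.0565), and Egr2 on control diet lost it (0.66, adjusted p = 0.126). Other marker lists moved too, with macrophage markers higher (3 of 5 on control and 4 of 5 on BC diet) and adipocyte markers lower (5 of 9 and 4 of 9).

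**Figure D5:**
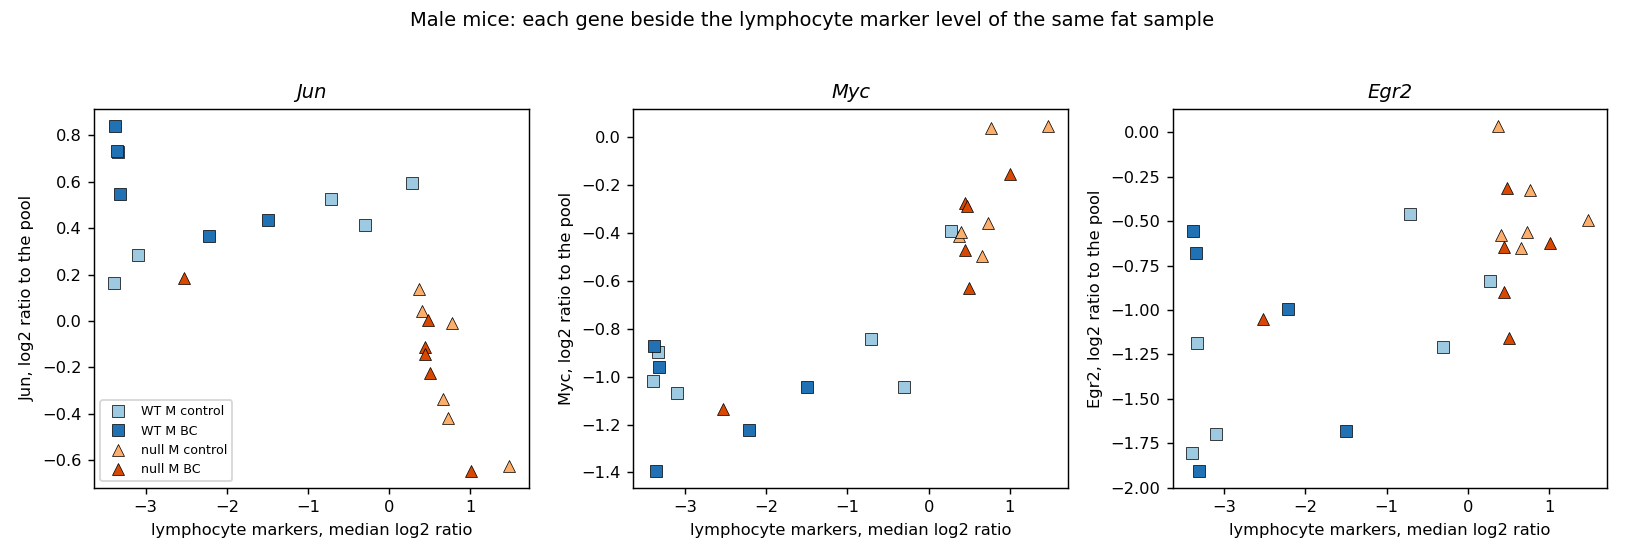
Log2 ratio of Jun, Myc and Egr2 (vertical axes) against the median log2 ratio of the lymphocyte markers in the same sample (horizontal axes) for the 23 male mice, squares for WT and triangles for Bcmo1-/-. Jun is at 0.16 or higher in all WT males, and the triangle farthest to the left, at -2.53, has Myc at -1.13, among the WT points.

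Of the 33 further immediate early genes 11 were called in males on control diet, 7 higher and 4 lower in Bcmo1-/- mice, and 7 on BC diet, 3 higher and 4 lower, beside 30.2% and 29.2% of all probes, so that the list was not set apart by its count. The list's median was 0.12 and 0.10 against 0.01 and 0.00 over all probes. On control diet the 5 with the largest change were Dusp2, a phosphatase of lymphocytes (2.92), Ier5 (1.18), Ctgf, a matrix protein (-1.02), Gadd45b (1.02) and Egr3 (0.70). Against the same shares of all probes, 6 of the 13 heat shock genes were higher on control diet and 1 on BC diet, and 6 and 7 of 14 genes of endoplasmic reticulum stress, 6 and 4 of 14 of hypoxia and 2 and 2 of 8 glucocorticoid targets were called in either direction. Of 6 genes of interleukin 6 and the acute phase, 2 were called on control diet. Brown adipocyte markers were higher in 4 of 5 on control diet.

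The sexes differed in 6 of 9 members, beside 51.6% of all 20718 probes. Over the 4 genotype and diet groups, Egr2 (-1.12 ± 0.20, adjusted p = 6.42e-06 by limma) and Myc (-1.04 ± 0.12, adjusted p = 5.88e-10 by limma) were lower in males by 2.17-fold and 2.05-fold. Myc was above the pool in 17 of 24 females and 2 of 23 males, and Egr2 in 13 of 24 females and 1 of 23 males. Ier2 (-0.35 ± 0.10), Junb (-0.28 ± 0.09) and Fos (-0.39 ± 0.16) were lower in males as well (adjusted p = 0.00317, 0.00718 and 0.0367 by limma). Jun alone was called higher in males, 0.35 ± 0.08 (adjusted p = 0.000433 by limma), and its highest values were those of WT males. Nr4a1 (0.39 ± 0.18, adjusted p = 0.0624), Atf3 (-0.12 ± 0.08, adjusted p = 0.185) and Egr1 (0.01 ± 0.23, adjusted p = 0.97) did not pass by limma. A second Junb probe (-0.41) and the other Myc probes (-0.91 and -0.34) gave the same direction.

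The sex difference cannot be told apart from the mammary gland within the female fat pad. All 8 tested mammary epithelial markers were lower in males (median -4.45), and the sample levels ran from -2.13 to 1.71 in females and from -4.34 to -2.61 in males, without overlap. Muscle markers were higher in males (8 of 8), as were adipocyte (7 of 9), endothelial (5 of 5) and blood markers (3 of 3), brown adipocyte markers were lower in 3 of 5, and no lymphocyte (of 10), macrophage (of 5) or skin marker (of 2) was called by limma. With the lymphocyte and mammary levels as covariates, Myc differed by 0.42 ± 0.43, Egr2 by 0.50 ± 0.78, Ier2 by 0.42 ± 0.41, Junb by 0.54 ± 0.35 and Fos by 0.37 ± 0.64, all of opposite sign and none called (adjusted p from 0.725 to 0.958 by limma), and Jun by 0.68 ± 0.33 (adjusted p = 0.523 by limma). With muscle and skin marker levels as covariates instead, Myc, Egr2 and Jun remained called and Fos, Junb and Ier2 did not. Mice of both sexes shared 4 of the 12 slides, and with slide as a block Myc (-1.05, adjusted p = 0.00168) and Egr2 (-0.96, adjusted p = 0.0495) remained called by limma, as did Junb (-0.67, adjusted p = 0.00548) and Ier2 (-0.67, adjusted p = 0.0153), while Jun (0.27, adjusted p = 0.281) and Fos (-0.78, adjusted p = 0.0656) did not. With median centring Fos (-0.42), Junb (-0.20) and Ier2 (-0.29) did not pass (adjusted p = 0.061, 0.175 and 0.0722 by limma).

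The calls of Fos and Nr4a1 depended on single mice. For Fos, leaving out any 1 of 12 mice ended the call (adjusted p from 0.0516 to 0.0654 by limma): WT females on BC diet 1 and 5, Bcmo1-/- females on control diet 4 and on BC diet 2, WT males on control diet 3 and 5 and on BC diet 3 and 4, and Bcmo1-/- males on control diet 3 and 5 and on BC diet 5 and 6. Nr4a1 passed when any 1 of 11 mice was left out (adjusted p from 0.026 to 0.0494 by limma): WT females on control diet 1 and 3 and on BC diet 1, Bcmo1-/- females on control diet 1 and on BC diet 2, WT males on control diet 3 and 5 and on BC diet 4, and Bcmo1-/- males on control diet 3, 5 and 6. Of the 33 further immediate early genes 16 were called, 6 higher and 10 lower in males, near the 51.6% of all probes, with Plk2 (-1.50), Ctgf (-1.38), Klf10 (-0.61), Ier5 (-0.56) and Dusp1 (0.54) the 5 with the largest change.

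The response to BC in WT mice did not differ between the sexes for any member by limma (0 of 9 adjusted, beside 1.14% of all probes, and 1 of 9 unadjusted beside 23.5%). The 1 was Myc, -0.93 ± 0.33 (adjusted p = 0.0989), as Myc differed by 0.71 in WT females and by -0.22 ± 0.16 in WT males. The other values were -0.51 for Ier2, -0.21 for Nr4a1, -0.13 for Egr2, Atf3 and Junb, -0.03 for Fos, 0.28 for Egr1 and 0.46 for Jun. The genotype difference depended on sex for 3 of 9 members over both diets, a comparison added after the values had been seen. As 32.8% of all probes were called, the members were not set apart by their count. The interaction was -0.67 ± 0.16 for Jun, 0.62 ± 0.18 for Junb and 0.84 ± 0.23 for Myc (males minus females, adjusted p = 0.00218, 0.00729 and 0.00529 by limma). Junb passed in this test although its genotype difference passed in neither sex, with values that were negative in females on both diets (-0.34 and -0.36) and positive in males (0.33 and 0.21). The other members had -0.01 (Fos), -0.09 (Atf3), -0.21 (Egr1), 0.26 (Nr4a1), 0.34 (Ier2) and 0.35 (Egr2). With the lymphocyte and mammary levels as covariates the values were -0.51 ± 0.19 for Jun, 0.43 ± 0.21 for Junb and 0.70 ± 0.25 for Myc, in the same direction and not past the threshold (adjusted p = 0.176, 0.285 and 0.162 by limma).

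Fosb lay near the background. Its mean signal was 2.78 times the background in Cy5 and 1.72 times in Cy3. Medians of the 8 groups in Cy5 lay between 2.29 times the background in WT males on BC diet and 3.03 times in WT females on control diet, and single mice between 1.76 and 6.56 times, so that the groups overlapped. With no filter, the Fosb ratio differed by at most 0.06 in any comparison of 2 groups (lowest adjusted p 0.517 by limma), with a level too near the background for a change to be read. A second probe of Ier2 was likewise too dim for use.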

How the data were processed

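Expression was measured in iWAT of 47 mice with 2-colour Agilent arrays. The authors labeled RNA of each mouse with Cy5 and a pool of all samples with Cy3, without dye swaps, and quantified spots with Feature Extraction (9.5.3.1 per the file headers). The deposited files hold median signals, backgrounds and processed signals as intensity, plus a log10 ratio of the processed channels (Cy5 over Cy3), which the deposited series table repeats. There are no counts, so that the number of arrays and the signal over background limit the precision.

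Median signals were corrected with normexp (offset 50), normalized with loess within arrays and expressed as log2 ratio (R 4.3.3, limma 3.58.1). The scanner software had marked 10902 spots over all arrays as outliers, which were left out, and replicate spots were averaged. Probes entered a fit if both channels, as means over its arrays, reached 2 times the mean background. A gene is represented by its brightest kept probe. Models of the group means (lmFit, eBayes of limma) were fitted over 24 female, 23 male or, to compare the sexes, all 47 arrays, with Benjamini-Hochberg adjustment over all kept probes at 0.05. Correlations between members used values less their group mean and 100000 permutations of mice within groups (Python 3.11.15, numpy 2.4.6). Fits and permutations were tested on simulated data.

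By rule every member is named in each comparison, Fosb by its signal and the range of its differences. Genes of the further immediate early list named for a comparison are the up to 5 with the largest change among those called, or the 3 with the lowest p, and other lists are given by counts. The 10 genes most like the members' median are also named. The lists were further immediate early genes, heat shock, endoplasmic reticulum stress, hypoxia, glucocorticoid targets, interleukin 6 and acute phase, and markers of adipocytes, brown adipocytes, lymphocytes, mammary epithelium, muscle, endothelium, macrophages, skin and blood. The members and lists were chosen with earlier results of these data known. No pairing of mice by replicate number is stated, and mice are the replicates. The methods state 3 animals per cage, and the sample labels do not name cages, so that cage could not be taken into account. Deviations of mice with the same number had a median correlation of -0.07 to 0.24 over 8 comparisons. Single pairs ran from -0.52 to 0.61. Between the diets, same numbers mostly shared a slide in WT females, Bcmo1-/- females and Bcmo1-/- males. Promoter sequences are from RefSeq (GRCm38.p6). The methods' t-test, other background corrections, normalizations, filters, blocks and covariates were run as alternatives.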

Additional observations from a re-analysis of the deposited data

Results flagged for a closer look

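Within groups of 5 or 6 mice, 1 value stood apart from the others of its group by Dixon's test in 6 of 72 combinations of gene and group, where chance gives about 1 in 20. Jun in Bcmo1-/- females on control diet was 0.30 in replicate 3, with the next mouse at -0.20. Junb in WT females on BC diet was 1.20 in replicate 2, with the next at 0.65. Junb in Bcmo1-/- females on control diet was -0.57 in replicate 1, with the next at 0.26, and the same mouse had the lowest Ier2 of its group. Ier2 in Bcmo1-/- males on BC diet was 0.62 in replicate 4, with the next at -0.03, and the same mouse had the highest Fos and Egr1 of its group. Myc in WT males on control diet was -0.39 in replicate 6, with the next at -0.84, and this sample had the highest lymphocyte marker level of the WT males (0.28). Nr4a1 in WT females on BC diet was -1.05 in replicate 5, with the next at 0.10, while Fos (0.87) and Egr1 (0.82) of the same mouse were the highest of its group.

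By limma's interaction over both diets, the genotype difference of 3 of 9 genes depended on sex, beside 32.8% of all probes. The members were thus not set apart by their count. Jun had -0.67 ± 0.16 (adjusted p = 0.00218), Junb 0.62 ± 0.18 (adjusted p = 0.00729) and Myc 0.84 ± 0.23 (adjusted p = 0.00529), each as the difference in males minus that in females. Lymphocyte markers had an interaction of the same kind (9 of 10 called, median 3.06), as had brown adipocyte markers (4 of 5 called, median 2.32), adipocyte markers (6 of 9 called, all lower, median -0.68) and endothelial (2 of 5) and muscle markers (1 of 8), each of those called being lower. With muscle and skin marker levels as covariates, chosen after seeing the data, Jun (-0.67, adjusted p = 0.00653), Junb (0.54, adjusted p = 0.0327) and Myc (0.83, adjusted p = 0.0145) remained called by limma, and the values with lymphocyte and mammary covariates are given with the comparison. The part of the other markers was not tested.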

How the results depend on the processing

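The counts of members called were recomputed under up to 18 alternatives and without each array in turn. For diet in WT females the count rose from 0 to 1 (Myc) with all 47 arrays in the fit. For genotype in females on control diet it rose to 1 (Ier2) with lymphocyte and mammary covariates. For genotype in males on control diet it went from 3 to 1 without normalization, to 1 with the slide block and to 0 with those covariates. In males on BC diet it went from 2 to 1 with median centring, 1 without normalization, 1 with all 47 arrays and 0 with those covariates. For the sex difference it went from 6 to 0 with those covariates, where Fos (0.37), Junb (0.54), Egr2 (0.50), Ier2 (0.42) and Myc (0.42) turned sign, and to 3 with muscle and skin covariates, chosen after seeing the data. The interaction of sex and genotype went from 3 to 0 without normalization and to 0 with lymphocyte and mammary covariates. The pairs of members called went from 18 to 32 without normalization, and were between 16 and 27 under the other alternatives (27 with median centring). The cause of these changes was not tested.

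Without each array in turn the counts ranged from 0 to 1 for genotype in females on either diet, 3 to 4 and 2 to 3 for genotype in males on control and BC diet, 5 to 7 for the sex difference and 18 to 20 for pairs, with the other counts unchanged. With the replicate block the counts were 3 and 2 for genotype in males and 0 in each diet comparison, 23 pairs were called, and the sex difference had 7, with Nr4a1 added (0.38, adjusted p = 0.0346 by limma). The numbers carry no stated pairing. Other calls of Jun, Myc and Egr2 in males that were lost are Jun with median centring on control diet (-0.51, adjusted p = 0.182 by limma), Egr2 with the position block (0.44, adjusted p = 0.118) and Egr2 with all 47 arrays (0.77, adjusted p = 0.143). The median SD within groups was 0.41 and lay between 0.43 and 0.50 under 3 alternatives.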
